A study of Mus musculus with 8 samples.

Results

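The semaphorins, ephrins, Slits and netrins are secreted or membrane-bound guidance ligands, and the plexins, neuropilins, Eph receptors, Robo proteins, Dcc, Neo1 and the Unc5 proteins are their receptors. Members were taken by mouse gene symbol from the protein-coding genes of these families. The rule uses no measured value, though earlier results of these data were known when members were chosen. The count table held 68 of the 69 symbols, 33 ligands and 35 receptors, among 43346 genes. Ntn3 was not matched to a row. The RNA came from osteocyte-rich fractions of bone from C57BL/6 mice aged 12 weeks, and osteocytes are the matrix-embedded cells of bone. There were 3 libraries from femur, 3 from frontal bone and 2 from parietal bone, and no treatment or genetic change is labelled in any of them. Frontal and parietal bone are the flat bones of the skull vault and are called calvaria here. Libraries are named by bone and by the number (1, 2 or 4) in their description. Whether a library stands for 1 mouse or several is not labelled, and the p-values therefore rest on library-to-library spread, part of which may be technical.

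Guidance cues were first described as signals that attract or repel growing axons, and the same ligands and receptors act between bone cells, vessels and nerves. Class 3 semaphorins are secreted and bind neuropilins, which signal together with plexins, whereas Sema3e binds Plxnd1 directly and the membrane-bound class 4 semaphorins bind B-type plexins. Ephrins and Eph receptors sit on opposing cells and can signal in both directions, with the A and B families pairing largely within themselves. Slits bind Robo receptors, and netrins bind Dcc, Neo1 and the Unc5 family. In bone, Sema3a and Sema4d are known as signals between osteoblasts and osteoclasts, Efnb2 and Ephb4 as a contact signal between the same cells, and Slit3 as a factor that links bone formation to vessel growth.

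Promoter sequence is shown for lower members with the largest differences between calvaria and femur within their role (the 3 highest-ranked ligands and the 3 highest-ranked receptors by log2 difference), for the member that was higher in calvaria, and for Sema3a, whose gene lies between those of Sema3d and Sema3e. RefSeq promoter windows (build GRCm38.p6) were matched by symbol for 58 of the 68 members, with 74 windows in all. Each sequence is the 250 bases before the annotated start, read 5′ to 3′ on the gene's strand, in lower case. Capitals mark matches, on either strand, to 5 short motifs that could overlap each other. These were the GC box, searched as GGGCGG, and the TATA box, searched as TATAAA. The AP-1 motif was searched as TGANTCA, the RUNX core as TGTGGT and the core of TCF and LEF factors as CTTTGAT. The windows lie at chr5:14025026-14025275 (plus strand) for Sema3e, chr5:12382916-12383165 (plus) for Sema3d, chr5:13396534-13396783 (plus) for Sema3a, chr4:141300971-141301220 (plus) for Epha2, chr10:60831582-60831831 (minus) for Unc5b and chr17:62881318-62881567 (minus) for Efna5.
Sema3e: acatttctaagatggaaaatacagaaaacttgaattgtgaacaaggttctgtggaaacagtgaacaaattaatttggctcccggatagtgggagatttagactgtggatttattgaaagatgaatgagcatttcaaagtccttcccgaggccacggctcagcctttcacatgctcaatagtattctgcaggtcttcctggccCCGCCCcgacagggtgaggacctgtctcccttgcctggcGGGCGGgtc
Sema3d: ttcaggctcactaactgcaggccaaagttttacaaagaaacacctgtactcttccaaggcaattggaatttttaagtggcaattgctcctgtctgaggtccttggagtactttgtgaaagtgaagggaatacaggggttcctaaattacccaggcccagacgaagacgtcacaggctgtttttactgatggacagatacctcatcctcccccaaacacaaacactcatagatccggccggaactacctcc
Sema3a: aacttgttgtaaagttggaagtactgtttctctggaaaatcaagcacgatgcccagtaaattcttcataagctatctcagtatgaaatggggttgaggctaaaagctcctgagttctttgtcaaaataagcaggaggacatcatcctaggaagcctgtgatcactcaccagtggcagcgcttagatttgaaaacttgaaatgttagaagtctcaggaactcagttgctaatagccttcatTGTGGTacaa
Epha2: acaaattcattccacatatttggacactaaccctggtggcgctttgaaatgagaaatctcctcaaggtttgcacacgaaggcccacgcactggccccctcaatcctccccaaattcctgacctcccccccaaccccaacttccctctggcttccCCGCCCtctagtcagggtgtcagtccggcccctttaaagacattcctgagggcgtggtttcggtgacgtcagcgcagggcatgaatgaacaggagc
Unc5b: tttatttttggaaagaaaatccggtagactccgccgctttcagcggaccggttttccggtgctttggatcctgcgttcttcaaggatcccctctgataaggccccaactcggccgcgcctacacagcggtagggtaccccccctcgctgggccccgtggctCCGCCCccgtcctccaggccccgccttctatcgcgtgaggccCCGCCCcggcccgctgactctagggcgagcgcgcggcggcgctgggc
Efna5: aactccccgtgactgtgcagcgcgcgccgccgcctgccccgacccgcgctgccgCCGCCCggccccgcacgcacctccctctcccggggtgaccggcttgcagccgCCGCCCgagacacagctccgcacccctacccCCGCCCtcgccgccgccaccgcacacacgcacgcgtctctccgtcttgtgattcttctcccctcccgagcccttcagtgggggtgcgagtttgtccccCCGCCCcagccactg
The windows of Slit3 and Nrp2, the remaining ligand and receptor of that ranking, overlap annotated exons and are not shown. The Sema3a window lies inside the gene as GENCODE M21 draws it, which starts further upstream.

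A GC box was found in 53 of the 74 member windows (71.6%) and in 44.4% of all 19931 windows of protein-coding genes. The member windows had a median GC content of 64.4%, against 56.0% for all windows, and the share with a GC box was not compared at equal GC content. The TATA box letters occurred in 2 member windows (2.70%, against 11.1% of all windows), AP-1 letters in 3 (4.05%, against 6.10%), RUNX core letters in 9 (12.2%, against 12.1%) and TCF and LEF core letters in 1 (1.35%, against 2.75%). The Sema3d window held none of the 5 motifs, and the Efna5 window held 4 GC boxes. A match is a description of the letters and not a binding site.

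Raw counts per library summed to between 6259229 and 13461622. Of 15511 genes that passed a filter on low counts, 55 were members (26 ligands and 29 receptors). The other 13, Sema3c, Sema4g, Sema5b, Sema6c, Efna3, Efna4, Efnb3, Plxnb3, Epha5, Epha6, Epha8, Epha10 and Dcc, had a mean of 1.14 CPM (normalised counts scaled to a common library total) or less in every bone and were not tested. Epha6 had 0 counts in the 3 frontal libraries against 10 in the femur libraries. With a floor of 3 counts over the group put in place of the 0, the frontal level was at least 3.46-fold lower. The observed counts give no finite fold. The 95% interval of the fold, which covers counting error only, reached down to 2.33. The labelled cell type was checked against 16 osteocyte marker genes. Their summed share of counts was 2.83% to 5.38% in the femur libraries and 0.218% to 0.328% in the calvarial libraries, and Dmp1, a matrix protein of osteocytes, had a mean of 35310 CPM in femur, 490 in frontal and 586 in parietal bone.

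Guidance genes took a larger share of the RNA in femur than in calvaria. All 68 members together made up 0.256%, 0.229% and 0.197% of counts in femur libraries 1, 2 and 4. Frontal bone gave 0.0589%, 0.0756% and 0.0504% in the same order of numbers, and parietal bone 0.0561% for library 2 and 0.0624% for library 4. Every femur library lay above every calvarial library. In these bulk samples, fewer cells of a type and less RNA per cell cannot be told apart.

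The make-up of the ligand pool also differed between bones, a measure that needs no scaling between libraries. Sema3d, a secreted class 3 semaphorin, supplied 15.2% to 25.5% of ligand counts in femur, 1.99% to 4.59% in frontal and 6.12% to 7.69% in parietal libraries. The class 4 semaphorins together supplied 13.9% to 22.6% in femur, 42.8% to 61.7% in frontal and 32.1% to 41.1% in parietal libraries. Sema4d alone supplied 7.37% to 10.7% of ligand counts in femur and 19.4% to 27.4% in frontal bone. Sema4a supplied 1.93% to 6.03% in femur and 15.6% to 23.3% in frontal bone. The ranges of Sema3d, class 4, Sema4d and Sema4a did not overlap between femur and calvaria. Among receptors, Nrp2, a co-receptor for class 3 semaphorins, supplied 38.4% to 47.1% of counts in femur and 23.4% to 24.6% across the 5 calvarial libraries. Its relative Nrp1 supplied 4.80% to 6.79% in femur and 14.5% to 18.5% in calvaria. These shares show unequal change within the pool and not the direction of any single gene.

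**Figure D1:**
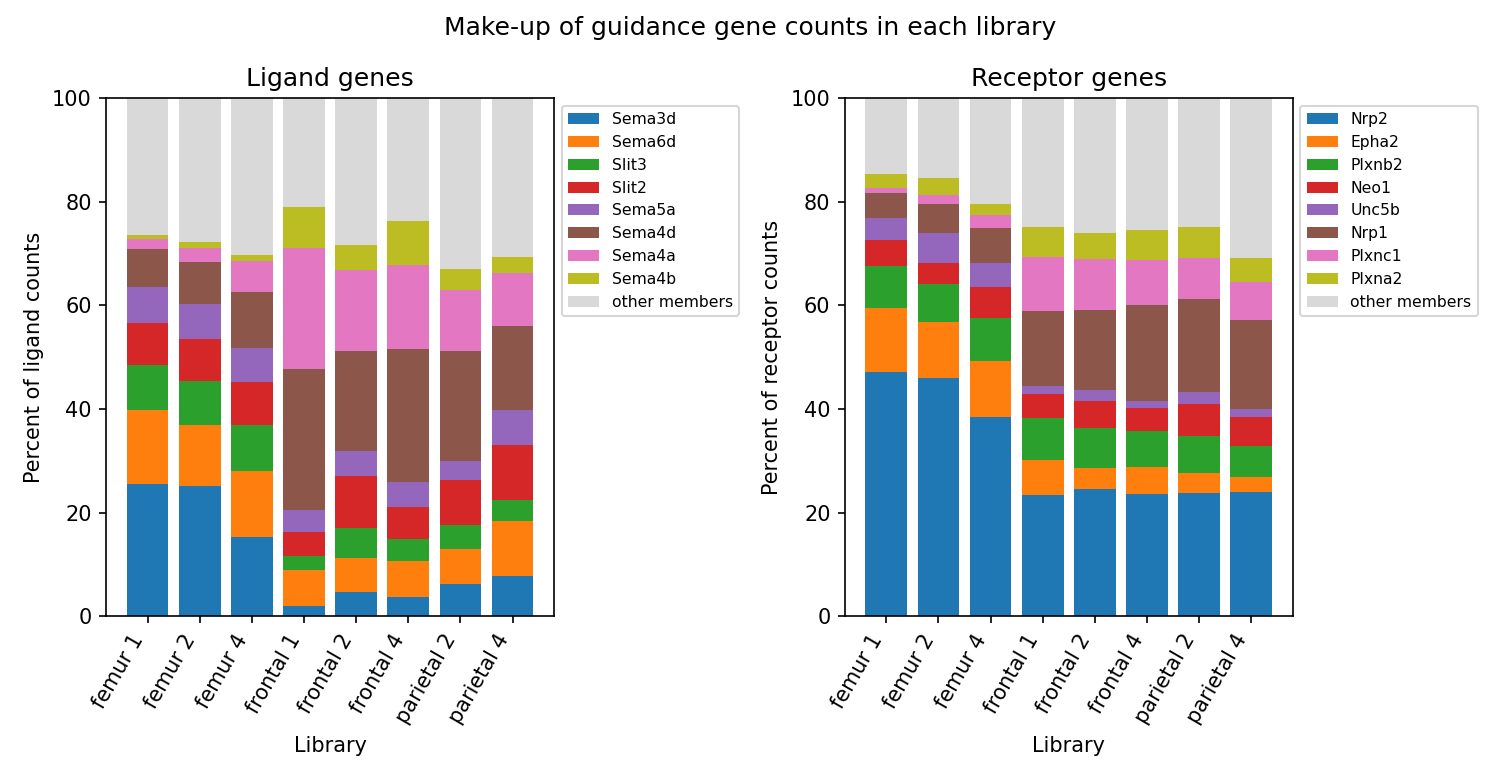
Percent of the ligand counts (left) and of the receptor counts (right) that came from named members, in each of the 8 libraries (bars, axis from 0 to 100%). Sema3d supplied 15.2% or more of ligand counts in femur and 7.69% or less in calvaria, and Nrp2 38.4% or more of receptor counts in femur and 24.6% or less in calvaria.

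Levels between genes were compared as CPM per kilobase of annotated exon. The highest ligands in femur on that scale were Sema3d with 33.5 ± 12.8 (SD, n = 3) and Efna1 with 31.8 ± 3.10, which did not differ beyond their spread. Slit3 followed with 18.3 ± 2.72, Sema7a with 16.7 ± 3.34 and Sema6d with 15.7 ± 3.60, again within their spread of each other. In frontal bone the order was led by Sema4a (10.2 ± 2.51 CPM per kilobase, n = 3) and Sema4d (9.39 ± 0.982), and in parietal bone by Sema4d (6.86 ± 1.02, n = 2), Sema4a (5.75 ± 0.322) and Efna1 (5.72 ± 1.12). Nrp2 was the highest receptor in all 3 bones, with 41.5 ± 10.3 CPM per kilobase in femur, 5.71 ± 1.22 in frontal and 6.31 ± 0.322 in parietal bone. Epha2 was next in femur (27.2 ± 6.26), and Nrp1 was next in frontal (4.63 ± 0.733) and parietal bone (5.60 ± 0.0679).

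The comparison of calvaria with femur asks which guidance genes differ between flat and long bone. It set the average of frontal and parietal bone against femur in edgeR's quasi-likelihood test over all 8 libraries, with Benjamini-Hochberg adjustment over 15511 genes. Of the 55 members tested, 38 were lower in calvaria, 1 was higher and 16 did not pass. Over all genes tested, 31.4% were lower and 29.6% were higher. The median log2 difference of the members was -1.32, against 0.01 for all genes. Of the 38 lower members, 34 had every calvarial library below every femur library, and the exceptions were Plxna3, Epha4, Unc5a and Unc5c. The share without overlap among all lower genes is not given here, so this count describes the members and sets them apart from no other genes. Sema3e, Sema3g and Ntn1 passed the filter only through the femur libraries, so they had to differ and add nothing to the count. Without these 3, 35 of 52 members were lower, 31 of them with no overlap, and the median was -1.23.

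**Figure D2:**
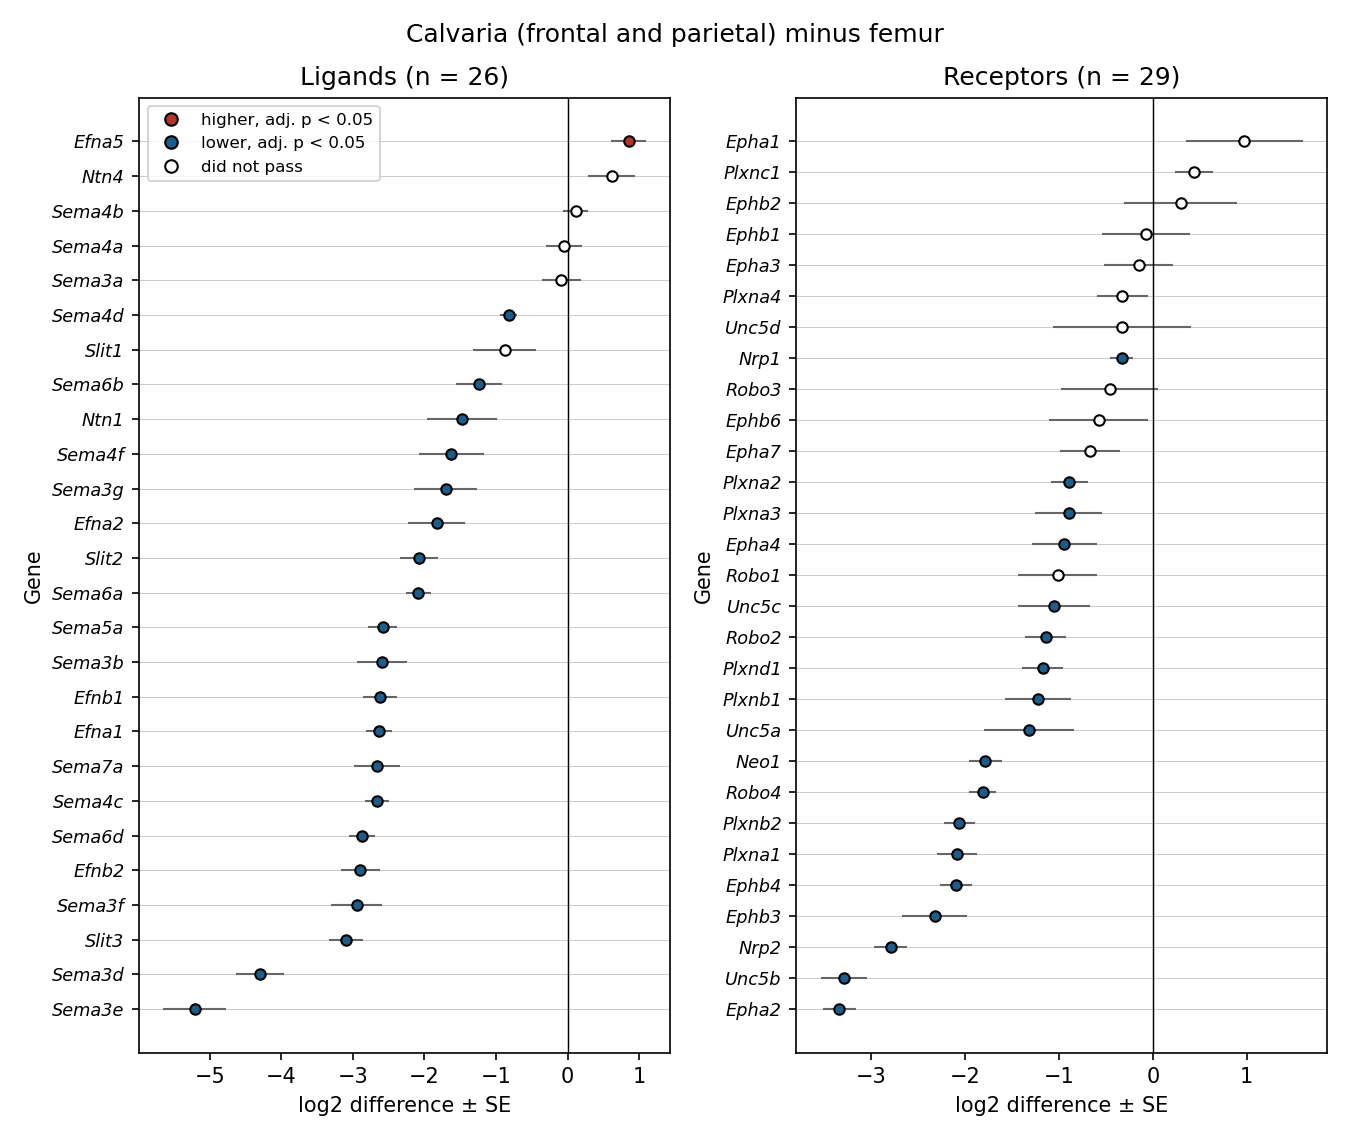
Log2 difference, calvaria minus femur, with its standard error for the 26 ligands (left) and 29 receptors (right) tested; filled points passed an adjusted p of 0.05 in edgeR. Efna5 is the 1 filled point above 0, and the lowest are Sema3e at -5.21 among ligands and Epha2 at -3.34 among receptors.

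Of the 23 ligands that did not pass the filter through femur alone, 17 were lower in calvaria and 1 was higher, with a median log2 difference of -2.08, and 13 were lower by at least 4-fold. Of 29 receptors, 18 were lower and 0 higher, with a median of -1.01, and 7 were lower by at least 4-fold. These counts, and those by family below, stand against 31.4% lower and 29.6% higher over all genes. At an unadjusted p of 0.05, 0 receptors were higher by edgeR, 1 by DESeq2 and 1 by limma-voom. Plxnc1 was called higher in 5 of the alternative fits, described with the plexins. The difference between ligands and receptors as groups was not tested. With a trend on gene length and GC content removed, 27 members remained lower, and the 11 that lost the call were Sema4f, Sema6b, Ntn1, Plxna2, Plxna3, Plxnb1, Plxnd1, Nrp1, Epha4, Unc5a and Unc5c. Plxna3 (-0.90 ± 0.36) also lost it in 7 of the 8 fits that left out 1 library.

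Of the 4 class 3 semaphorins that did not pass the filter through femur alone, Sema3b, Sema3d and Sema3f were lower in calvaria and Sema3a did not pass. Sema3d (chr5:12383385-12588948, plus strand) measured 374, 325 and 164 CPM in femur libraries 1, 2 and 4, against 5.86, 16.4 and 9.83 in the frontal and 16.8 and 22.6 in the parietal libraries. Every calvarial library lay far below every femur library, and the log2 difference was -4.30 ± 0.34 (SE, adjusted p = 3.79e-06 by edgeR). Sema3e (chr5:14025276-14256689, plus strand), the ligand of Plxnd1, measured 18.7, 15.7 and 5.72 CPM in femur, 0.120, 0.0956 and 0.140 in frontal and 0.917 and 1.07 in parietal libraries. The 3 frontal libraries held 3 counts of Sema3e in all, the 2 parietal libraries 23 and the 3 femur libraries 324. The fitted log2 difference of Sema3e was -5.21 ± 0.44, in a gene that entered the test only through its femur counts and is given as a description. From the counts, the femur level was 112-fold the frontal level, with a 95% interval of 38.1 to 547 that covers counting error only.

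Sema3f and Sema3b, which signal through neuropilins, were lower by log2 differences of -2.95 ± 0.36 and -2.59 ± 0.35 (adjusted p = 2.68e-05 and 5.78e-05 by edgeR). Sema3f measured 22.0, 19.5 and 21.5 CPM in femur, 3.59, 3.06 and 1.12 in frontal and 1.15 and 4.56 in parietal libraries, with no overlap. Sema3g was low throughout, at 1.87 to 2.58 CPM in femur and 0.306 to 0.970 in calvaria, and it too entered only through femur. Sema3a, a repellent cue also known to act on bone cells, stood apart from its class. It measured 8.60, 11.0 and 12.5 CPM in femur, 4.54, 11.4 and 5.90 in frontal and 14.7 and 13.0 in parietal libraries. Its groups overlapped, and its log2 difference of -0.09 ± 0.27 did not pass (adjusted p = 0.794 by edgeR).

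**Figure D3:**
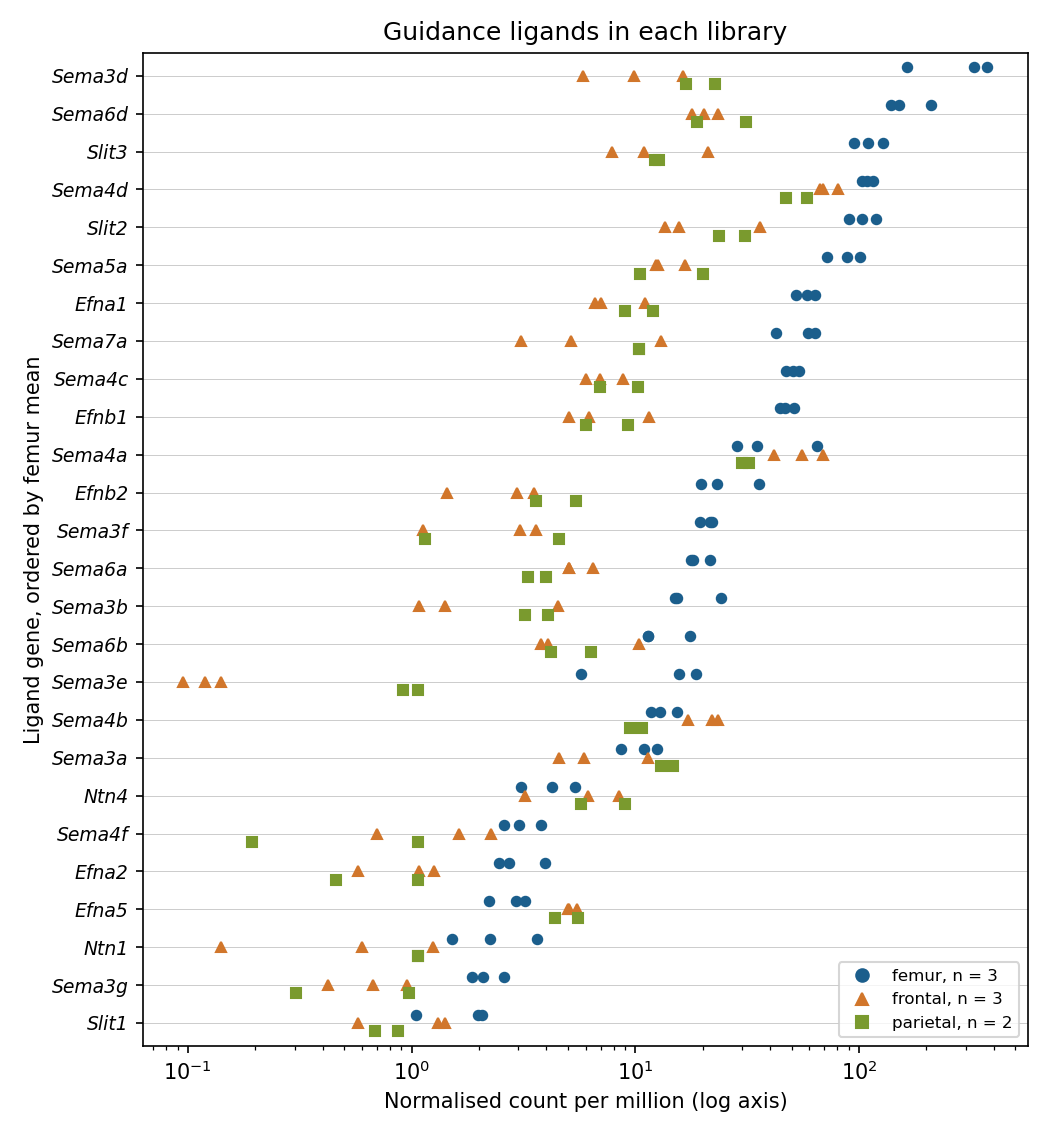
Normalised CPM (log axis) of the 26 tested ligands in each library, ordered by femur mean (circles femur, triangles frontal, squares parietal). Sema3e shows the widest gap, from 5.72 CPM or more in femur to 0.140 or less in frontal bone, while Efna5 lies higher in all 5 calvarial libraries than in the 3 femur libraries.

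Of 5 tested class 4 semaphorins, 3 were lower. Sema4d, a plexin B1 ligand made by osteoclasts and lymphocytes, measured 108, 103 and 116 CPM in femur, 80.7, 69.0 and 66.6 in frontal and 58.3 and 47.2 in parietal libraries. The groups did not overlap, and its log2 difference was -0.82 ± 0.12 (adjusted p = 9.89e-05 by edgeR). Sema4c was lower by a log2 difference of -2.66 ± 0.17 (adjusted p = 2.36e-07), from 47.3 to 53.8 CPM in femur to 6.04 to 10.2 in calvaria. A gene on the other strand covers 7.27% of the Sema4c exon bases, and without a stated strand setting reads of the pair cannot be told apart. Sema4a, which is expressed by immune cells, measured 28.4, 35.0 and 65.0 CPM in femur, 68.7, 55.6 and 41.6 in frontal and 32.3 and 29.9 in parietal libraries. Its groups overlapped, and its log2 difference of -0.05 ± 0.25 did not pass (adjusted p = 0.875 by edgeR), whereas it came to 0.53 (adjusted p = 0.0444) after the trend on length and GC was taken out. Sema4b did not pass either, at 0.11 ± 0.17.

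All 5 tested semaphorins of classes 5, 6 and 7 were lower. Sema6d, a transmembrane ligand of Plxna1, measured 210, 151 and 139 CPM in femur, 20.3, 23.3 and 18.0 in frontal and 18.8 and 31.2 in parietal libraries. Every calvarial library lay far below femur, with a log2 difference of -2.87 ± 0.19 (adjusted p = 2.72e-07 by edgeR). Sema7a, a membrane-anchored ligand of Plxnc1, measured 59.0, 63.7 and 42.7 CPM in femur, 5.14, 13.0 and 3.09 in frontal and 10.4 and 10.4 in parietal libraries. It too showed no overlap, and its log2 difference was -2.66 ± 0.33 (adjusted p = 3.83e-05). Sema5a, Sema6a and Sema6b had log2 differences of -2.58, -2.08 and -1.24. Once a trend on length and GC was taken out, Sema6b came to -0.17 (adjusted p = 0.611 by edgeR) and lost its call.

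Among ephrins, 4 of 5 tested were lower and Efna5 was higher. Efnb2, the ligand of Ephb4, measured 35.8, 23.1 and 19.6 CPM in femur, 1.43, 3.54 and 2.95 in frontal and 5.43 and 3.59 in parietal libraries. The groups were well separated, and the log2 difference was -2.90 ± 0.28 (adjusted p = 4.21e-06 by edgeR). Efna1 and Efnb1 had log2 differences of -2.64 ± 0.18 and -2.62 ± 0.24, and the low-level Efna2 of -1.83 ± 0.40. Efna5, a lipid-anchored ligand of EphA receptors (chr17:62604184-62881317, minus strand), measured 2.92, 3.21 and 2.22 CPM in femur, 5.02, 5.07 and 5.48 in frontal and 4.36 and 5.53 in parietal libraries. All 5 calvarial libraries lay above the 3 femur libraries, with a log2 difference of 0.86 ± 0.24 (adjusted p = 0.00916 by edgeR). This call held in all 16 alternative fits, with adjusted p up to 0.0443.

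Of the 3 Slits, 2 were lower, and of the 2 netrins tested Ntn4 did not pass while Ntn1 passed the filter on low counts only through femur. Slit3 measured 128, 110 and 95.2 CPM in femur, 7.89, 21.0 and 11.0 in frontal and 12.7 and 12.2 in parietal libraries. No calvarial library came near the femur range, and the log2 difference was -3.10 ± 0.24 (adjusted p = 1e-06 by edgeR). Slit2 was lower by a log2 difference of -2.08 ± 0.27, from 90.0 to 119 CPM in femur to 13.6 to 36.1 in calvaria. Slit1 was at 2.06 CPM or less in every library and did not pass (-0.88 ± 0.44, adjusted p = 0.0997). Ntn1, a secreted ligand of Dcc and Unc5 receptors, was low in all bones at 2.24, 1.51 and 3.62 CPM in femur, 0.598, 1.24 and 0.140 in frontal and 1.07 and 1.07 in parietal libraries. The groups did not overlap, and its fitted log2 difference was -1.48 ± 0.49, a description for the same reason as for Sema3e. Ntn4, a netrin of basement membranes, had 3.10 to 5.37 CPM in femur and 3.23 to 8.94 in calvaria, and its log2 difference of 0.62 ± 0.33 did not pass (adjusted p = 0.119).

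Among semaphorin receptors the 2 neuropilins differed in size of change. Nrp2 (chr1:62703285-62818695, plus strand) measured 603, 509 and 361 CPM in femur, 62.8, 83.7 and 56.2 in frontal and 72.0 and 77.4 in parietal libraries. The groups were widely separated, and the log2 difference was -2.79 ± 0.18 (adjusted p = 2.17e-07 by edgeR). Nrp1, which also binds vascular endothelial growth factor, measured 61.6, 62.7 and 63.8 CPM in femur, 38.7, 53.0 and 44.2 in frontal and 54.4 and 55.3 in parietal libraries. Its groups did not overlap, but the log2 difference was only -0.33 ± 0.12 (adjusted p = 0.0356 by edgeR), and the call was lost in 5 of the 8 fits that left out 1 library and with upper quartile scaling (-0.16).

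Of 8 plexins tested, 6 were lower. Plxna1, a receptor for Sema6d and a partner of neuropilins, measured 22.9, 17.4 and 22.2 CPM in femur, 5.02, 6.50 and 3.51 in frontal and 4.20 and 5.24 in parietal libraries. The ranges were separate, with a log2 difference of -2.08 ± 0.21 (adjusted p = 6.31e-06 by edgeR). The annotation places an antisense gene over 10.7% of the Plxna1 exon bases, and the strand setting of the counting is not given, so reads of the 2 cannot be told apart. Plxnb2 was lower by -2.06 ± 0.16, and Plxnb1, the Sema4d receptor, by -1.22 ± 0.35 (adjusted p = 0.00937), which lost the call, at -0.36 (adjusted p = 0.351 by edgeR), after the same trend was taken out. Plxnb1 measured 3.78, 7.18 and 7.23 CPM in femur, 2.87, 3.06 and 0.983 in frontal and 3.59 and 2.23 in parietal libraries, without overlap. Plxnd1, the Sema3e receptor, was lower by -1.17 ± 0.22, a value that came to -0.08 with the length and GC trend removed. Plxnc1, the Sema7a receptor, had 13.9 to 23.6 CPM in femur and 20.8 to 33.4 in calvaria, and its log2 difference of 0.44 ± 0.20 did not pass (adjusted p = 0.0784 by edgeR). Plxnc1 was called higher in 5 alternative edgeR fits, at 0.61 with upper quartile factors (adjusted p = 0.0174), 0.47 with no filter (0.0469), 0.72 after that trend was taken out (0.00717), 0.63 without femur library 4 (0.0242) and 0.50 without frontal library 4 (0.039).

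Of 10 tested Eph receptors, 4 were lower, which is near the 31.4% of all genes that were lower. Epha2, a receptor for Efna1 (chr4:141301240-141329384, plus strand), measured 159, 119 and 102 CPM in femur, 17.8, 13.6 and 12.5 in frontal and 11.9 and 9.51 in parietal libraries. It had the largest difference of any receptor, with no overlap and a log2 difference of -3.34 ± 0.18 (adjusted p = 6.7e-08 by edgeR). Ephb4, the receptor of Efnb2, measured 20.1, 18.1 and 20.2 CPM in femur, 3.94, 4.68 and 3.79 in frontal and 4.43 and 5.53 in parietal libraries. Its libraries were tightly grouped within each bone, with a log2 difference of -2.09 ± 0.17 (adjusted p = 1.33e-06). Ephb3, a receptor for B ephrins, measured 4.30, 7.84 and 5.37 CPM in femur, 1.43, 1.05 and 0.843 in frontal and 0.688 and 1.84 in parietal libraries. It did not overlap either and was lower by -2.32 ± 0.35 (adjusted p = 0.00013), and Epha4 was lower by -0.94 ± 0.34, a call lost in 5 of the 8 fits that left out 1 library. Epha1, Epha3, Epha7, Ephb1, Ephb2 and Ephb6 did not pass. Epha1 shares 6.01% of its exon bases with Zyx on the other strand, so its 0.283 to 1.36 CPM are uncertain.

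**Figure D4:**
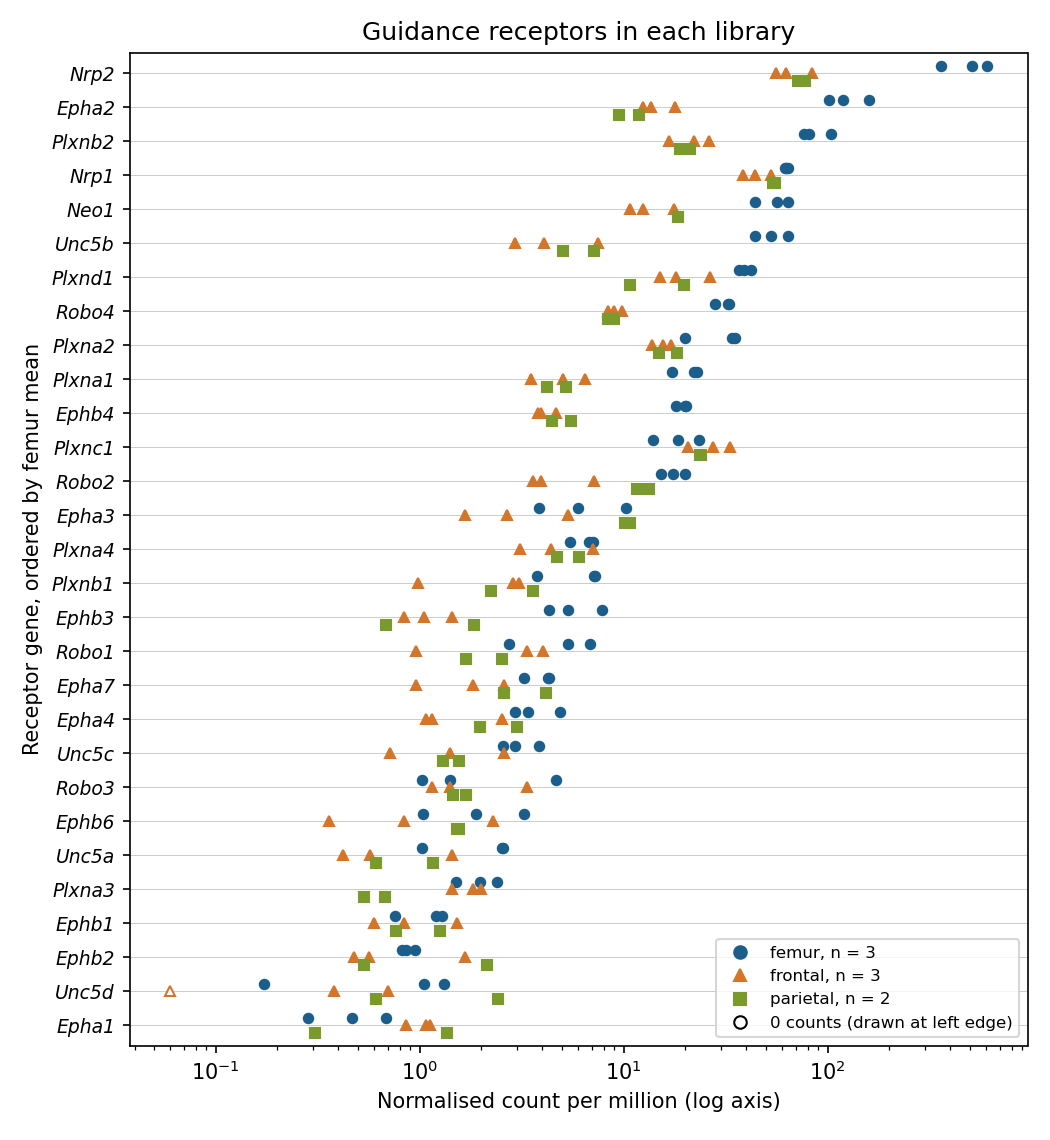
Normalised CPM (log axis) of the 29 tested receptors in each library, ordered by femur mean (circles femur, triangles frontal, squares parietal, open symbol 0 counts). Nrp2 is the highest in every bone, from 361 to 603 CPM in femur and 56.2 to 83.7 in calvaria, and Plxnc1 and Epha3 overlap between femur and calvaria.

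Of 4 Robo receptors 2, and of 5 tested netrin receptors 4, were lower, against 31.4% of all genes. Robo4, the Robo family member of endothelial cells, was lower by -1.81 ± 0.14 (adjusted p = 1.1e-06 by edgeR), from 28.0 to 32.9 CPM in femur to 8.34 to 9.85 in calvaria. Robo1, a Slit receptor, measured 6.88, 2.74 and 5.37 CPM in femur, 0.956, 4.02 and 3.37 in frontal and 1.68 and 2.52 in parietal libraries. Its groups overlapped, and its log2 difference of -1.01 ± 0.42 did not pass (adjusted p = 0.0557 by edgeR). It was called lower with DESeq2 (adjusted p = 0.0422), and in edgeR with no filter (0.00918), without femur library 2 (0.0247) and without frontal library 2 (0.0282). Unc5b (chr10:60762593-60831581, minus strand), a netrin receptor of endothelial and other cells, measured 53.1, 64.3 and 44.2 CPM in femur, 4.06, 7.46 and 2.95 in frontal and 7.19 and 5.04 in parietal libraries. The groups stood well apart, with a log2 difference of -3.29 ± 0.25 (adjusted p = 7.81e-07). Neo1, which binds netrins and the repulsive guidance molecules, was lower by -1.78 ± 0.18. Unc5a and Unc5c were lower by -1.32 and -1.05 at levels of 3.87 CPM or less, and the calls were lost in 5 and 4 of the 8 fits that left out 1 library.

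Frontal and parietal bone were also each set against femur, with the femur libraries shared by both comparisons. In frontal bone 35 members were lower, or 32 without the 3 that passed the filter through femur alone (28.5% of all genes), and 2 were higher (27.2% of all genes). In parietal bone 31 were lower, or 29 without those (28.6% of all genes), and 1 was higher (27.1% of all genes). Sema3d had a log2 difference of -4.73 ± 0.42 in frontal and -3.87 ± 0.47 in parietal bone. For Nrp2 the values were -2.86 ± 0.21 and -2.72 ± 0.24, and for Epha2 -3.11 ± 0.21 and -3.56 ± 0.25. No member had opposite calls in the 2 bones. Efna5 was higher in both (0.89 and 0.82), though its parietal call was lost with no filter, with DESeq2 and with the replicate block. Sema4b was higher in frontal bone (0.63 ± 0.19, adjusted p = 0.0144 by edgeR) and did not pass in parietal bone (-0.41 ± 0.22, adjusted p = 0.13).

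The direct comparison of frontal with parietal bone, 3 libraries against 2, called 1 member higher in frontal bone and 2 lower. Over all genes, 3.91% were higher and 3.29% lower, so the members' count is near the background. Sema4b (chr7:80186841-80226527, plus strand) measured 23.4, 17.1 and 21.9 CPM in frontal and 10.7 and 9.51 in parietal libraries, with 11.7, 15.4 and 13.0 in femur. Frontal libraries lay above all others, and the frontal minus parietal log2 difference was 1.04 ± 0.22 (adjusted p = 0.0304 by edgeR). Robo2 (chr16:73891839-74411825, minus strand), a Slit receptor, measured 3.59, 7.17 and 3.93 CPM in frontal and 11.7 and 13.4 in parietal libraries, with 19.9, 15.2 and 17.4 in femur. The 3 bones did not overlap, and its log2 difference was -1.33 ± 0.28 (adjusted p = 0.0309). Epha3 (chr16:63543534-63864175, minus strand), a receptor for Efna5, measured 1.67, 5.35 and 2.67 CPM in frontal, 10.2 and 10.8 in parietal and 10.3, 3.87 and 5.95 in femur libraries. Frontal and parietal libraries did not overlap while femur spanned both, and the log2 difference was -1.66 ± 0.45 (adjusted p = 0.0474).

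All 3 calls were lost when 1 of the following was left out: the femur library numbered 2, the frontal library numbered 1, or either parietal library. In each of those fits edgeR called 0 genes of the whole table, with 2520 to 4059 genes at an unadjusted p under 0.05. Without femur library 2 their log2 differences were 1.04 for Sema4b, -1.33 for Robo2 and -1.66 for Epha3. Femur libraries do not enter this difference, so its size could hardly change there. Without frontal library 1 the values were 0.945 for Sema4b, -1.14 for Robo2 and -1.34 for Epha3. Leaving out frontal library 2 gave 6 of 54 members lower in frontal bone, against 1036 of 15266 genes. Leaving out frontal library 4 gave 0 lower, with 5 at an unadjusted p under 0.05, and kept the call of Sema4b. DESeq2 on all libraries called 3 of 55 members higher and 3 lower, against 1187 and 1038 of 15511 genes. With limma-voom the members numbered 1 and 2, against 762 and 801 of those genes. Sema3a and Sema3e measured more in both parietal libraries than in any frontal library, but their differences of -0.91 ± 0.33 and -2.95 ± 0.87 did not pass (adjusted p = 0.0984 and 0.0597 by edgeR). From the counts, the parietal level of Sema3e was 8.51-fold the frontal level (95% counting interval 2.57 to 44.3).

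**Figure D5:**
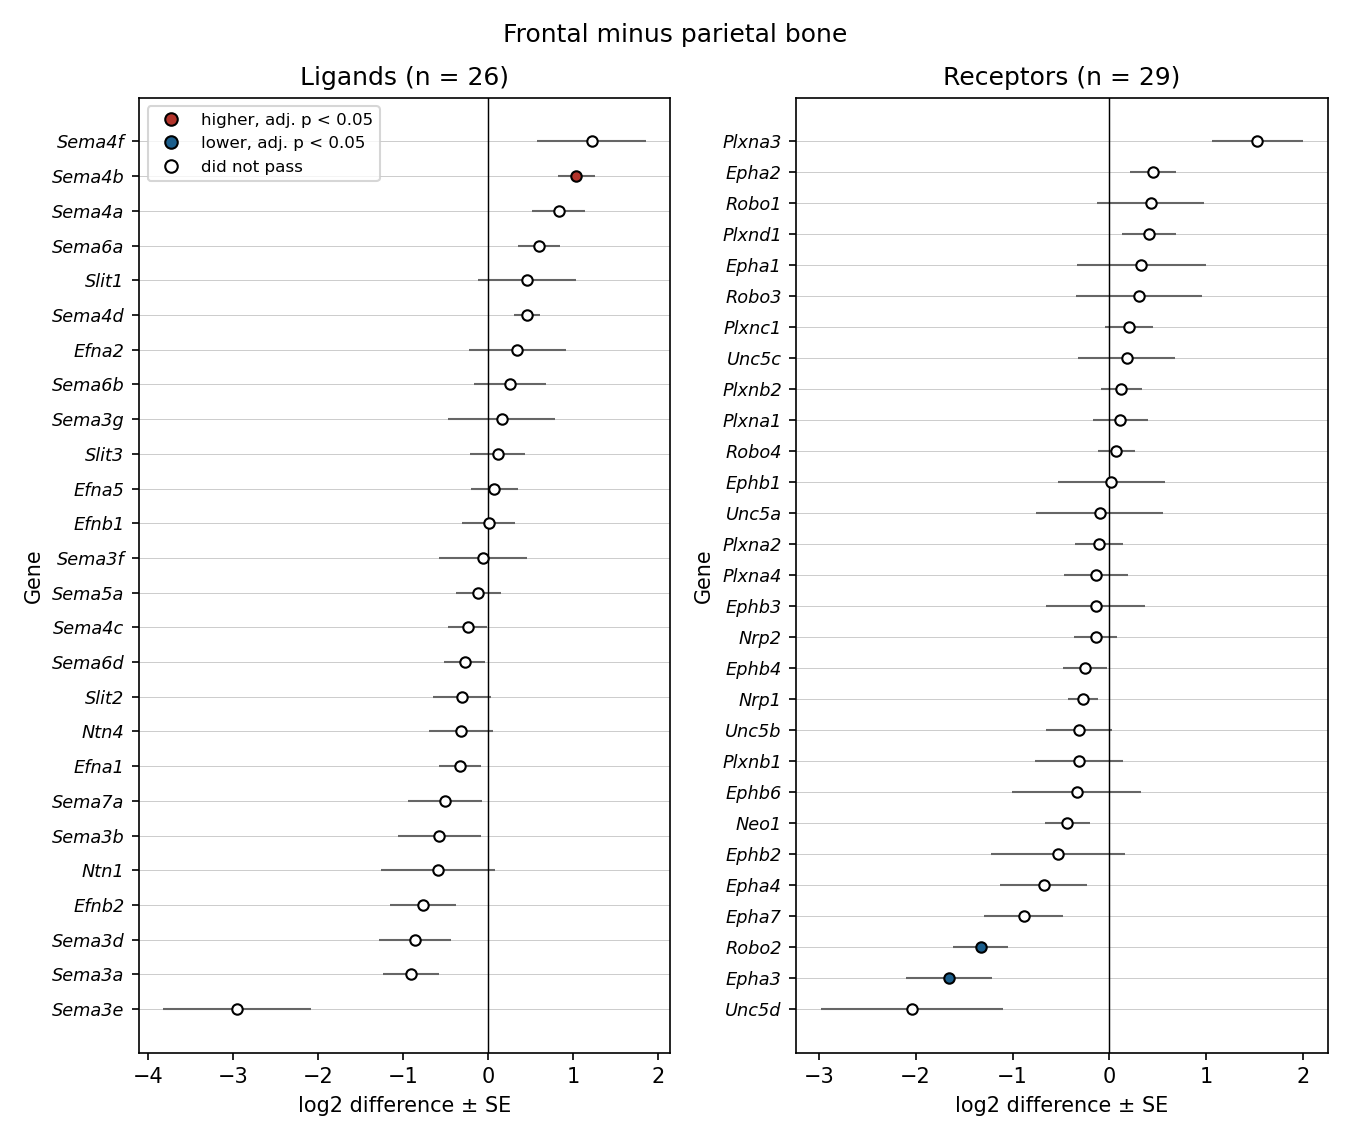
Log2 difference, frontal minus parietal bone, with its standard error for the 26 ligands (left) and 29 receptors (right) tested; filled points passed an adjusted p of 0.05 in edgeR. The filled points are Sema4b at 1.04, Robo2 at -1.33 and Epha3 at -1.66, and several larger differences, such as Sema3e at -2.95, have wide errors.

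The 3 frontal libraries were not alike for guidance genes. Frontal library 2 was the highest of the 3 in 34 of 55 tested members (61.8%, against 34.0% of all genes), with frontal library 1 highest in 13 and frontal library 4 in 8. Osteoblast marker genes (17 genes) made up 3.59% of counts in frontal library 2, against 1.43% and 1.38% in frontal libraries 1 and 4, 3.10% and 3.32% in the parietal and 6.97% to 9.62% in the femur libraries. The endothelial, mural, osteoclast, cartilage, and stromal and periosteal lists were also highest in library 2 of the 3 frontal libraries. Endothelial genes made up 0.0490% there, against 0.0391% and 0.0330%. Osteocyte genes were nearly equal in frontal libraries 2 and 4 (0.279% and 0.277%). The erythroid, granulocyte, B cell and skeletal muscle lists were lowest in frontal library 2. The part of these lists in the spread of the members was not tested. In femur, library 1 was the highest in 28 of 55 members (50.9%, against 36.1% of all genes). Parietal library 4 was the higher of its 2 in 35 of 55 members (63.6%, against 44.8% of all genes).

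Members that are neighbours on a chromosome did not all share a call. Sema3a lies 536 kb beyond Sema3d and 423 kb before Sema3e on chromosome 5 (GENCODE M21, GRCm38), and it did not pass between calvaria and femur while Sema3d was lower and Sema3e was near 0 in frontal bone. Robo4 was lower and Robo3, whose gene lies 553 bases away on chromosome 9, did not pass (-0.46 ± 0.52). Sema3b and Sema3f, 72.3 kb apart on chromosome 9, were both lower. Robo1 and Robo2, 846 kb apart on chromosome 16, had log2 differences of -1.01 and -1.14, of which that of Robo2 passed and that of Robo1 passed only in 4 alternative fits.

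Ligands and their known receptors were read side by side. Efnb2 and Ephb4 were both lower in calvaria (-2.90 and -2.09), as were Efna1 and Epha2 (-2.64 and -3.34), Sema6d and Plxna1 (-2.87 and -2.08), and Sema4d and Plxnb1 (-0.82 and -1.22, the latter not with the length and GC trend removed). Slit3 was lower with Robo2 and Robo4, while Robo1 passed only in the 4 alternative fits named above. For Sema7a and Plxnc1 the ligand was lower (-2.66) and the receptor did not pass (0.44), though it was higher in 5 alternative fits. For Sema3a, neither the ligand nor Plxna4 passed (-0.09 and -0.32), and Nrp1 was lower by -0.33, a call that several alternative fits lost. Of the other A plexins, Plxna1 was lower (-2.08), as were Plxna2 and Plxna3, though the latter 2 not with the length and GC trend removed. Efna5 was higher (0.86), while of the tested EphA receptors Epha2 and Epha4 were lower and Epha1, Epha3 and Epha7 did not pass. These pairs were chosen from background knowledge and the pairing itself was not tested.

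Other genes of the pathways were read from a list of 69 partners and intracellular effectors. Of the 62 tested, 34 were lower in calvaria and 6 were higher, against 31.4% and 29.6% of all genes. The list was not screened for genes that passed the filter through femur alone. Chl1, with 10, 11 and 26 counts in femur and 2 to 8 in the calvarial libraries, is such a gene. Its lower call adds nothing to the 34. Their median log2 difference was -0.93, against 0.01 for all genes. The lowest p-values belonged to Ngef, Fyn, Sdc3, Micall1, Flrt2 and Nrcam. Ngef, an exchange factor bound by EphA receptors, measured 91.1, 94.4 and 48.8 CPM in femur and 0.837 to 1.84 in calvaria, a log2 difference of -5.83 ± 0.27 (adjusted p = 4.07e-08 by edgeR). Fyn, a kinase downstream of ephrins and semaphorins, had a log2 difference of -2.01 ± 0.12, and the syndecan Sdc3 of -3.87 ± 0.27. Flrt2, a membrane ligand of Unc5 receptors, had -2.91 ± 0.24, the actin regulator Micall1 -2.75 ± 0.22 and the adhesion molecule Nrcam -2.56 ± 0.22. The 6 higher genes were Tyrobp (1.62 ± 0.19), Cd72 (1.35 ± 0.15), Trem2 (1.00 ± 0.23), Plxdc1 (0.86 ± 0.30), Dpysl2 (0.52 ± 0.16) and Cdk5 (0.43 ± 0.16). Cd72 is a receptor of Sema4d on B cells, and Trem2 with Tyrobp forms a myeloid receptor complex that also works with Plxna1. Between frontal and parietal bone, Met, a kinase that associates with plexins, was lower in frontal bone (-1.39, adjusted p = 0.0463 by edgeR) and Arhgef12, an exchange factor that binds B plexins, was higher (0.90, adjusted p = 0.0304).

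Markers of several cell types moved with the same contrast. Over all genes tested, 31.4% were lower in calvaria and 29.6% higher. The osteocyte list was lower for 12 of 16 genes (median log2 difference -3.15) and higher for 2, Dstn (0.79) and Capg (0.69). The osteoblast list was lower for 12 of 17 (-1.14), the endothelial list for 14 of 15 (-1.01) and the cartilage list for 5 of 7 tested (-1.98). Marker lists were not screened for genes that passed the filter through femur or calvaria alone. Acan and Col10a1, with 43 and 48 counts in femur against 7 and 6 in calvaria, passed through femur only. Their lower calls therefore add nothing to the cartilage count. The mural list was lower for 5 of 9 (-1.10), with Acta2 higher (0.79). Summed shares were 6.97% to 9.62% in femur and 1.38% to 3.59% in calvaria for osteoblast genes, and 0.0756% to 0.0906% against 0.0330% to 0.0490% for endothelial genes. Mural genes took 0.0416% to 0.0630% in femur and 0.0110% to 0.0184% in calvaria. Blood lineages ran the other way, with 11 of 11 erythroid, 9 of 12 granulocyte, 9 of 12 monocyte and 9 of 10 B cell genes higher in calvaria. Mertk, of the monocyte list, was lower (-1.775). Erythroid genes took 0.913% to 2.21% of counts in femur and 5.43% to 8.40% in calvaria, and granulocyte genes 1.62% to 4.20% and 6.19% to 8.41%. Other lists were mixed. Of 9 megakaryocyte genes 4 were higher and 1 lower in calvaria, of 13 osteoclast genes 5 were higher and 2 lower, and of 12 stromal and periosteal genes 1 was higher and 5 lower. Of 4 skeletal muscle genes tested 2 were higher and 2 did not pass. Tnni2, 1 of the 2, had 16 counts in femur against 108 in calvaria. It passed the filter through calvaria only, so its higher call adds nothing. Of 12 Schwann cell and nerve genes 6 were tested, with 2 higher and 3 lower, and the defining Sox10, Ngfr and Gap43 had between 0 and 4 counts in each bone. The part of these cell types in the members' differences was not tested.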

How the data were processed

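The authors deposited raw counts per gene, whole numbers for 8 libraries. The submitters' processing notes name the aligner STAR (version 2.5.2a), the packages edgeR, DESeq2 and limma, and mm10 and GRCm38.p3 as builds. No source used here gives the counting tool, its annotation or its strand setting. A further filtered count table and a scaled table were not used here. The 92 spike-in rows were left out. Symbols, positions and exon lengths came from GENCODE M21, which may differ from the authors' annotation.

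Genes were filtered with filterByExpr and scaled by TMM, and edgeR 4.0.16 (R 4.3.3) fitted the 3 bones in one robust quasi-likelihood model with 5 residual degrees of freedom. Calls had an adjusted p under 0.05. CPM are on the TMM scale. Log2 differences carry a standard error from the F statistic. Members and lists were chosen with earlier results of these data known. Per-library values were given for a set list of members, for the 6 called members with the largest difference in each role at a mean of 5 CPM or more, for every member higher in calvaria and for every member called between frontal and parietal bone. Of partners and effectors, the 6 with the smallest p were named, and the genes called higher and those called between frontal and parietal bone were named after their values were seen, as were the other members. Total counts ranged from 6259229 to 13461622. Simulated counts with 200 changed genes among 15511 recovered 67% of 2-fold and 91% of 4-fold changes between calvaria and femur, and 54% and 89% between frontal and parietal bone. Alternatives used DESeq2 1.42.0, limma 3.58.1 (voom), other scalings, no filter, a length and GC trend, a replicate block, the 2 bones alone and each library left out.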

Additional observations from a re-analysis of the deposited data

Results flagged for a closer look

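In 3 members, frontal and parietal bone differed from femur by unequal amounts, by a test of the difference itself in edgeR. These are 1 member higher and 2 lower in frontal bone of 55 tested, against 3.91% and 3.29% of all genes. Sema4b had a frontal minus parietal log2 difference of 1.04 (adjusted p = 0.0304), with frontal above femur by 0.63 and parietal below it by -0.41. Robo2 had -1.33 (adjusted p = 0.0309), with frontal at -1.81 and parietal at -0.48 against femur. Epha3 had -1.66 (adjusted p = 0.0474), with frontal at -0.98 and parietal at 0.68 against femur, neither of which passed. The direction held in all 3 frontal against both parietal libraries for each gene. Each of the 3 calls was lost when femur library 2, frontal library 1 or either parietal library was left out, with the length and GC trend removed, and with the replicate block (adjusted p = 0.102 for Sema4b, 0.102 for Robo2 and 0.115 for Epha3 in edgeR). Robo2 and Epha3 also lost it without frontal library 4, and Epha3 with library size only.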

How the results depend on the processing

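The 38 lower members between calvaria and femur came to 27 with the length and GC trend removed, 33 with upper quartile factors, 34 with library size only, 36 with the replicate block and 33 to 39 with 1 library left out. Lower receptors (18) came to 10 with that trend removed, and Sema4a turned to 0.53 (adjusted p = 0.0444 in edgeR). The median gene moved to 0.19 with upper quartile factors and to 0.11 with library size only. Over all 15511 genes, lower calls (4868) came to 4615 with the trend removed and 4135 with upper quartile factors. They came to 4413 with library size only and 4596 with the replicate block. Higher calls over all genes (4596) came to 5555 with upper quartile factors, 4447 with the trend removed and 4561 of 32437 with no filter. The counts of lower members still include those that passed the filter only through femur. Members higher in calvaria (1) numbered 3 with upper quartile factors, 2 with no filter, 4 with the trend removed and 1 to 2 with 1 library left out. Members higher in frontal bone than femur (2) numbered 4 with the trend removed and 1 to 3 with 1 library left out. Those higher in parietal bone than femur (1) numbered 2 with upper quartile factors, 0 with no filter, 0 with DESeq2, 0 with the replicate block and 0 to 1 with 1 library left out. Partners and effectors higher in calvaria (6) numbered 10 with upper quartile factors, 12 with the trend removed and 3 to 6 with 1 library left out.

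Between frontal and parietal bone, members higher (1) numbered 2 with no filter, 3 with DESeq2, 0 with the replicate block, 0 with the trend removed (2 at an unadjusted p under 0.05), 2 with the 2 bones alone and 0 to 2 with 1 library left out. Members lower (2) numbered 1 with library size only, 4 with no filter, 0 with the replicate block, 0 with the trend removed (8 at an unadjusted p under 0.05) and 0 to 6 with 1 library left out. All genes called (1118) came to 2225 with DESeq2, 1904 with no filter, 189 with the trend removed and 0 in edgeR with the replicate block, where 3504 genes had an unadjusted p under 0.05, among them 4 members higher and 4 lower. With library size only the split was 773 higher and 249 lower, against 607 and 511. The cause was not tested. Same-number correlations of deviations from the bone mean ran from -0.10 to 0.15, against -0.145 to 0.172 for other numbers. Of 8 libraries, 2 matched their own number best. With so few libraries around each bone mean, these values cannot decide whether the numbers mark shared animals or batches. Of the values recomputed for members between calvaria and femur, 781 kept direction and call, 26 uncalled values in 9 members changed sign without a call, 54 lost the call, 13 gained one and 1 reversed. At this depth 13 members had too few counts to be tested.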
